A study of Mus musculus with 8 samples.

Results

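The 10 genes described here encode the machinery that decides whether a cell leaves G1: the D-type cyclins Ccnd1, Ccnd2 and Ccnd3, their kinase partners Cdk4 and Cdk6, the inhibitors Cdkn1b (p27), Cdkn1c (p57), Cdkn2c (p18) and Cdkn2d (p19), and Rb1, the retinoblastoma protein that the kinases phosphorylate. They were taken by name, as 10 of the 32285 gene rows of a table of unique molecular identifiers (UMIs), and were described across marker-gated classes of nuclei and by detection of Top2a, a topoisomerase whose transcript is abundant from S phase to mitosis. The nuclei came from mouse bone marrow cells sorted as lineage-negative, Sca1-positive and ckit-positive, the sort that enriches for blood stem cells together with early progenitors. Each was assayed with the 10x multiome, which reads RNA and open chromatin from the same nucleus. The labels name 2 samples each for T58A RNA, WT RNA, T58A ATAC and WT ATAC. T58A mice carry a point mutation of MYC and WT mice are their littermates, and each sample pooled 2 mice of a genotype. The counts arrived as 1 table of 8708 nuclei whose barcodes fall into 4 sets, and no source used here ties a set to a genotype, so T58A and WT were not compared and the table was treated as 1 sample. The table carries the name of T58A only, which leaves unknown whether it holds WT nuclei.

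As background, D cyclins bind CDK4 or CDK6, and the active pair phosphorylates RB, which releases E2F factors and opens the way to S phase. The INK4 inhibitors p18 and p19 bind CDK4 and CDK6 alone, while the CIP/KIP inhibitors p27 and p57 bind cyclin and kinase complexes. In blood formation, CDK6 is known for setting how fast a stem cell leaves quiescence, cyclin D3 for the divisions of lymphoid and red cell precursors, and p57 and p27 for keeping stem cells out of cycle.

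The stretches upstream of Cdk4, Cdk6 and Cdkn2c are shown because the first pair holds the E-box CACGTG, the motif that MYC and its partner MAX are known to bind, and the last holds TTCCCGC, the core of an E2F motif. Each is the 250 bases before an annotated transcription start in RefSeq, build GRCm38.p6, with the motif in capitals. They lie at chr10:127063285-127063534 on the plus strand for Cdk4, chr5:3343643-3343892 on the plus strand for Cdk6, inside the span of that gene at chr5:3341004-3531008, and chr4:109666757-109667006 on the minus strand for Cdkn2c.
Cdk4: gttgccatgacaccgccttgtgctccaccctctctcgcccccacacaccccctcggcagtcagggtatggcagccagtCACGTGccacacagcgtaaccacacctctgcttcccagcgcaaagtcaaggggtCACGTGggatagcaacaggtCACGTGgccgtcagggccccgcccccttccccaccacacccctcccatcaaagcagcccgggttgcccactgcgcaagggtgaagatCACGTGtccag
Cdk6: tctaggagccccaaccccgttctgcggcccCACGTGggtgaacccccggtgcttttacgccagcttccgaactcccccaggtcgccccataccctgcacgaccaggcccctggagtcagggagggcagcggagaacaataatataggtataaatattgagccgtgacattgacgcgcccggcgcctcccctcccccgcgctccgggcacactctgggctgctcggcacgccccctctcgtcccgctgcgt
Cdkn2c: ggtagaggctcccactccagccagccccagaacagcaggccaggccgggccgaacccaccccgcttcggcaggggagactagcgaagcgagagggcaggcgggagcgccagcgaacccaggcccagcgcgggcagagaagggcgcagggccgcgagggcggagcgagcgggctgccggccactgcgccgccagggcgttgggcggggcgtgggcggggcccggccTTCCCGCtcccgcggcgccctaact
The Cdk4 window held 4 E-boxes, which began 172, 118, 98 and 11 bases before the start. The Cdk6 window held 1, which began 220 bases before it, and the Cdkn2c window shown held 1 E2F core, 25 bases before the start. A second Cdkn2c window, at chr4:109665373-109665622, held neither motif. Both strands were searched, and the motifs do not overlap. An E-box occurred in 6.02% and an E2F core in 3.82% of the 32851 windows of the same length, and 7 windows held at least 4 E-boxes. RefSeq windows were at hand for 6 of the 10 genes, and those of Ccnd3, Cdkn1b and Cdkn2d held neither motif. A match describes letters and is no measure of binding.

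Nuclei had between 1001 and 24786 UMIs, 4148 at the median and 45723860 in all. Levels are given as counts per 1000000 UMIs of a group (CPM), with an exact Poisson 95% interval that covers counting error only. Levels were compared within a gene and not between genes, since nuclear UMI counts also follow a gene's length. The barcode sets stood apart before any gene was compared: mitochondrial transcripts made up 24.6% and 24.2% of UMIs in sets 1 and 3, against 9.98% and 9.22% in sets 2 and 4. Of 8672 barcode sequences, 36 occurred in more than 1 set. With 1 sample there is no replicate error and no p-value. The call rule required that the ratio of CPM + 10 between groups reached 1.5-fold and pointed the same way in every barcode set with nuclei of both groups, among genes with at least 50 counts, and the sets are not replicates.

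Gates on lineage markers placed 2813 nuclei in 1 of 5 progenitor classes: 755 myeloid, 700 lymphoid, 389 megakaryocyte, 391 erythroid and 578 stem. Of 6 markers per class that the gates did not use, 5 were highest in the myeloid, megakaryocyte and erythroid class and 6 in the lymphoid class. The stem gate was weaker: Mllt3 and Prdm16 were highest there, but Meis1, Tek, Ctnnal1 and Slamf1 were higher in megakaryocyte-gated nuclei. Stem nuclei here therefore means only nuclei that met the gate of Hlf, Mecom, Procr, Fgd5 and Rarb. Mecom also reached 1072 CPM in megakaryocyte nuclei, against 1856 CPM in stem nuclei. Whether the megakaryocyte class holds stem cells was not tested. Top2a was detected in 79.2% of myeloid, 63.9% of lymphoid, 68.6% of megakaryocyte, 93.4% of erythroid and 46.0% of stem nuclei. Median depth also differed, at 6793, 5192, 5056, 8795 and 4706 UMIs in the same order, and detection of a transcript depends on depth. Markers of other cell types that the sort could hold were summed as well. B lineage markers reached 392 CPM in lymphoid nuclei, against 33.0 CPM in stem nuclei, and neutrophil markers lay between 25.8 and 51.1 CPM over the 5 classes. The sets stood apart here too: neutrophil markers had 47.7 to 99.0 CPM in sets 1 and 3 and 0 to 8.83 CPM in sets 2 and 4, and late erythroid markers had 34.3 to 62.4 CPM and 0 to 11.9 CPM. Plasma cell markers lay between 297 CPM in myeloid and 942 CPM in stem nuclei, while T and NK markers reached at most 6.06 CPM, with 3 to 5 of 6 genes at 0. Their part in the member levels was not tested.

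Ccnd3 differed widely between the classes. Its level was 90.2 CPM in myeloid, 282 in lymphoid, 193 in megakaryocyte, 66.1 in erythroid and 297 CPM in stem nuclei. Over barcode sets 1 to 4, Ccnd3 had 69.1, 114, 85.0 and 86.8 CPM in myeloid nuclei, against 249.6, 362, 291 and 296 CPM in stem nuclei. Erythroid nuclei had 54.7, 47.4, 66.4 and 85.0 CPM in the same sets. No set of the myeloid or erythroid class reached any set of the stem class. Counting intervals of lymphoid and stem nuclei overlapped, and those of every other neighbour in the order were separate.

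**Figure D1:**
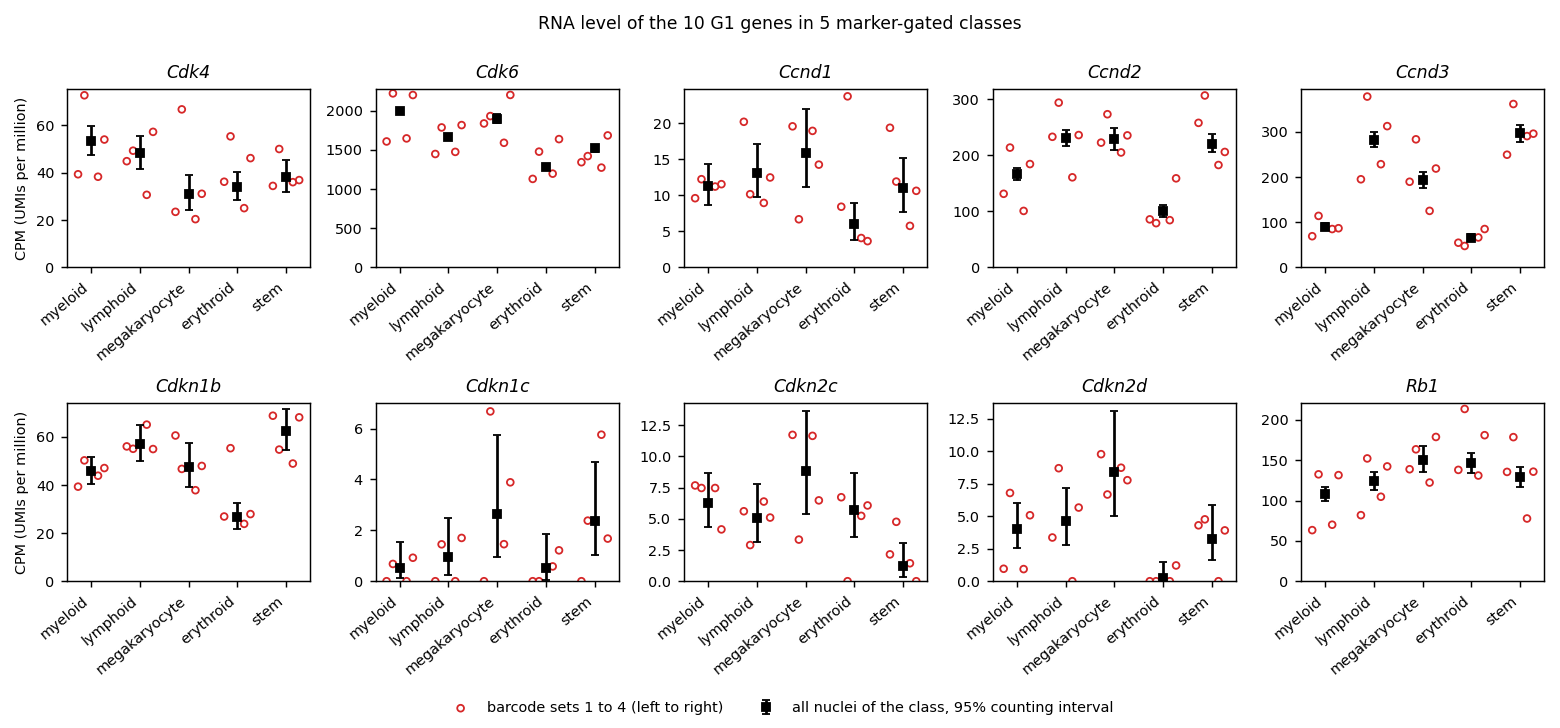
Level of each of the 10 genes in CPM (linear axis) for myeloid, lymphoid, megakaryocyte, erythroid and stem nuclei. Squares are all nuclei of a class with the 95% counting interval and open circles are barcode sets 1 to 4; Ccnd3 lies at 90.2 and 66.1 CPM in myeloid and erythroid nuclei, against 297 CPM in stem nuclei.

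In myeloid against stem nuclei, Ccnd3 was the only one of 7 measured members called, lower at a ratio of 0.304 (interval 0.273 to 0.338). As background, the rule called 17.0% of all genes measured in that comparison, and 12.3% of all measured genes were called lower; later backgrounds give the same shares. The call was the same among nuclei with Top2a, at 80.0 against 250.2 CPM, where 14.2% of genes were called, 10.0% lower. It was also the same among nuclei without Top2a, at 161 against 369 CPM, where 20.8% were called, 16.2% lower. In erythroid against stem nuclei, Ccnd3 (ratio 0.223, 0.193 to 0.256) and Ccnd2 (0.455, 0.401 to 0.515) were both called lower, 2 of 7 measured members, in a comparison where 35.4% of all genes were called, 26.3% lower. Both were called lower among nuclei with Top2a as well, 2 of 6 with a background of 32.4%, 23.7% lower. In megakaryocyte against stem nuclei, Ccnd3 was called lower, as 1 of 7 with a background of 10.0%, 7.07% lower. Its log2 ratio was -0.60, close to the 1.5-fold limit, and the call was lost without set 3, at -0.41. In lymphoid against stem nuclei, 0 of 7 members were called, with a background of 10.4%. Among nuclei with Top2a, 0 of 7 members were called in lymphoid nuclei, with a background of 9.56%, and 0 of 6 in megakaryocyte nuclei, with a background of 8.60%. Among nuclei without Top2a, 0 of 6 were called in lymphoid nuclei, with a background of 12.8%.

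The other D cyclins had their own orders. Ccnd2, the cyclin most tied to growth factor signals in blood cells, stood at 167 CPM in myeloid, 231 in lymphoid, 229 in megakaryocyte, 101 in erythroid and 221 CPM in stem nuclei. Over sets 1 to 4 it had 85.8, 79.1, 84.4 and 159 CPM in erythroid nuclei, against 258, 307, 183 and 206 CPM in stem nuclei. The sets of both classes did not overlap, while the first 3 of the 5 classes in the order, lymphoid, megakaryocyte and stem, had overlapping intervals. Ccnd1 was sparse, with 586 UMIs in the whole table. It ranged over the 5 classes between 5.96 CPM in erythroid and 15.9 CPM in megakaryocyte nuclei, and each neighbour in that order overlapped the next.

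Cdk6, the kinase with 75862 UMIs in the table, was at 1996 CPM in myeloid, 1667 in lymphoid, 1900 in megakaryocyte, 1280 in erythroid and 1520 CPM in stem nuclei, and no neighbouring intervals overlapped. The barcode sets spread more widely than those intervals, and the classes differed in their mix of sets. Sets 1 to 4 held 136, 8, 182 and 65 erythroid nuclei, but 118, 62, 151 and 247 stem nuclei. The pooled order did not hold in every set. In sets 1 and 4 megakaryocyte nuclei had 1838 and 2202 CPM, against 1608 and 2201 CPM in myeloid nuclei. In set 2 alone erythroid nuclei were above stem nuclei, at 1478 against 1421 CPM. In myeloid nuclei the sets had 1608, 2222, 1647 and 2201 CPM, against 1343, 1421, 1274 and 1685 CPM in stem nuclei, so that each myeloid set was above the same set of the stem class. Sets 1 and 3, which had the high mitochondrial share, had the lower Cdk6 levels in each of the 5 classes, and the part of that share in the levels was not tested. Among nuclei without Top2a, Cdk6 reached 2038 CPM in the myeloid class, against 1309 CPM in the stem class. It was called higher there (1.56-fold, 1.45 to 1.67), in a comparison where 4.61% of genes were called higher. S phase genes summed to 1130 CPM in those myeloid and 712.9 CPM in those stem nuclei, so the groups differed in cycle genes. At equal depth, Cdk6 without Top2a was at 2003 against 1527 CPM where S phase genes were detected. Where none was detected, it was at 1654 against 905 CPM. The part of S phase genes in the call was not tested. Erythroid against stem nuclei gave a log2 ratio of -0.25 for Cdk6, which turned to 0.03 over non-mitochondrial UMIs. It was 0.36 at 2000 UMIs with the gates read anew, which changes membership as well as depth. With gates from full depth, erythroid nuclei at 2000 UMIs had 1230 against 1527 CPM with S phase genes and no Top2a. With both they had 1220 against 1736 CPM, but set 2 went the other way, at 1699 against 1360 CPM. Mitochondrial transcripts made up 27.3% of UMIs in erythroid and 11.97% in stem nuclei, and leaving them out moves the log2 ratio of CPM by 0.28, and less for low genes once 10 CPM are added. Ccnd3 remained lower there at -1.78 over non-mitochondrial UMIs.

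Cdk4, the second partner of the D cyclins, was at 53.2 CPM in myeloid, 48.2 in lymphoid, 30.8 in megakaryocyte, 34.0 in erythroid and 38.0 CPM in stem nuclei. Neighbours in order of level overlapped, but the intervals of myeloid and stem nuclei were separate. The myeloid against stem ratio of 1.40 (1.136 to 1.735) was above 1 in each set but short of 1.5-fold. Cdk4 was not called in any of the 4 comparisons with stem nuclei.

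Among the inhibitors, Cdkn1b was the best measured, with 2421 UMIs. It was at 45.9 CPM in myeloid, 57.2 in lymphoid, 47.6 in megakaryocyte, 26.7 in erythroid and 62.6 CPM in stem nuclei. Over sets 1 to 4 erythroid nuclei had 26.9, 55.3, 23.9 and 27.9 CPM, against 68.85, 54.8, 49.0 and 68.2 CPM in stem nuclei. Set 2, which held only 8 erythroid nuclei, went against the other 3, so the ratio of 0.426 (0.334 to 0.542) was not called. Among nuclei without Top2a, megakaryocyte nuclei had 31.8 CPM of Cdkn1b, from 17 UMIs, against 67.3 CPM in stem nuclei, and the gene was called lower in a comparison where 13.5% of genes were called, 10.1% lower.

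The INK4 genes and Cdkn1c were near the limit of detection. Cdkn2c was at 6.26 CPM in myeloid, 5.09 in lymphoid, 8.81 in megakaryocyte, 5.70 in erythroid and 1.19 CPM in stem nuclei, the last from 4 UMIs, and the stem interval of 0.324 to 3.04 CPM lay below the intervals of the other 4. In set 2 the order differed, with 4.76 CPM in stem nuclei, from 2 UMIs, above the lymphoid, megakaryocyte and erythroid class. At 2000 UMIs per nucleus, 4 of 553 stem and 2 of 670 lymphoid nuclei had a UMI, and the intervals of these shares overlapped between stem and every other class. Cdkn2d was at 0.259 CPM in erythroid nuclei, from 1 UMI, against 3.27 CPM in stem nuclei, from 11 UMIs, and was highest in megakaryocyte nuclei at 8.37 CPM. Cdkn1c gave 56 UMIs in the whole table. Its levels of 2.64 CPM in megakaryocyte and 2.38 CPM in stem nuclei overlapped those of all other classes, and no order could be read at this depth. These genes had under 50 counts in each comparison with stem nuclei and could not be called.

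Rb1, the substrate, was at 108 CPM in myeloid, 124 in lymphoid, 151 in megakaryocyte, 147 in erythroid and 129 CPM in stem nuclei. The myeloid interval lay below those of megakaryocyte and erythroid nuclei. Over sets 1 to 4 myeloid nuclei had 63.3, 132.5, 70.0 and 131.5 CPM, against 138, 213.5, 131 and 181 CPM in erythroid nuclei. Megakaryocyte nuclei were also above myeloid nuclei in each set. The rule was not applied to these pairs of classes. Single sets ranged between 77.8 and 179 CPM in stem nuclei, and Rb1 was not called in any of the 4 comparisons with stem nuclei.

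Dividing all nuclei by detection of Top2a separates the later cycle only in part. A list of 16 other mitosis genes summed to 3245 CPM with Top2a and 537 CPM without, and S phase genes to 1290 and 801 CPM. Top2a was detected in 5010 nuclei and not in 3698, whose median depths were 5619 and 2904 UMIs. Ccnd3 was the 1 member of 10 called, lower where Top2a was detected, and the rule called 5.22% of all genes, 2.00% lower. In the 4 sets it had 113, 209.7, 132 and 197 CPM with Top2a, against 227, 396, 205 and 392 CPM without. Each set with Top2a lay below the same set without it, and the pooled levels of 161 against 288 CPM gave a ratio of 0.560 (0.536 to 0.584). When every nucleus was first thinned to 2000 UMIs, the log2 ratio was -0.73, against -0.80 at full depth.

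The same split was made inside the classes, so that their mix does not enter. Ccnd3 was at 80.0 CPM with Top2a against 161 CPM without in myeloid nuclei, called in a comparison with a background of 6.21%, 0.862% lower. Over sets 1 to 4 myeloid nuclei had 67.9, 95.3, 83.5 and 74.2 CPM with Top2a, against 76.5, 232, 91.1 and 233 CPM without, so that sets 2 and 4 differed widely and sets 1 and 3 little. Ccnd3 was at 231 against 421 CPM in lymphoid nuclei, with a background of 6.81%, 1.89% lower, and over the sets at 166, 292, 207.4 and 252 CPM against 273, 577, 287 and 490.2 CPM. It stood at 168 against 273 CPM in megakaryocyte nuclei, with a background of 7.38%, 1.45% lower, and over the sets at 158, 246, 121 and 179.7 CPM against 299.6, 394, 134 and 432 CPM. Set 3 of the megakaryocyte class differed little. In each of these classes it was called lower, and in megakaryocyte nuclei Ccnd2 was as well, at 190 against 356 CPM. Median depths with and without Top2a were 7688 and 4105 UMIs in myeloid, 6016 and 3977 in lymphoid and 5652 and 3776 in megakaryocyte nuclei. The calls in these classes were not repeated at equal depth. In stem nuclei Ccnd3 had 187, 350.1, 230.2 and 248 CPM with Top2a, against 317, 381, 363 and 388 CPM without, over the 4 sets. It was lower in each, but the log2 ratio of -0.54 stayed short of 1.5-fold, and 0 of 6 measured members were called there, with a background of 5.39%. At 2000 UMIs per nucleus, with gates and Top2a detection read anew, the stem log2 ratio was -0.20. That setting changes membership as well as depth. Nuclei in no class had 160 against 273 CPM, and Ccnd3 was the 1 of 9 measured members called there, with a background of 4.12%, 1.22% lower. Erythroid nuclei without Top2a numbered only 26 and were not compared.

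**Figure D2:**
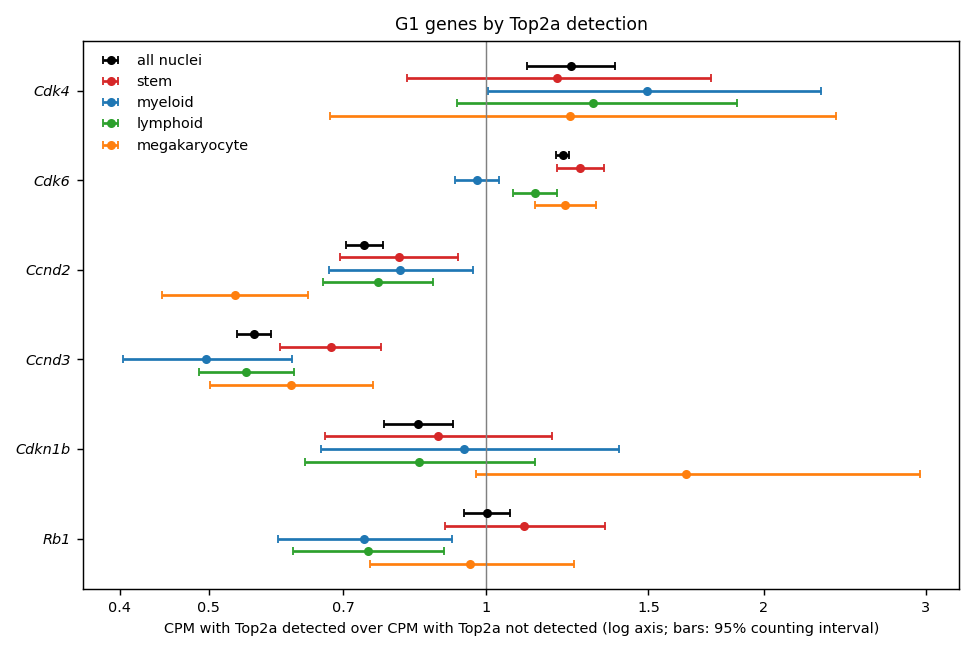
Ratio of CPM in nuclei with Top2a over nuclei without it (log axis) for 6 genes, in all nuclei and in the stem, myeloid, lymphoid and megakaryocyte class; bars are 95% counting intervals. Ccnd3 lies below 1 in every group shown, with 0.560 in all nuclei, while Rb1 is at 1.00 in all nuclei.

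No other member met the rule in all nuclei. Cdkn2c was at 7.82 CPM with Top2a and 2.62 CPM without, a ratio of 2.98 (2.07 to 4.43). It missed the rule because 10 CPM are added to both sides before the ratio, and it was called with 1 CPM added. Cdkn1c was at 0.966 against 1.91 CPM, from 32 and 24 UMIs, a ratio of 0.507 (0.289 to 0.900). Cdk6 was at 1743 against 1439 CPM, Cdk4 at 42.3 against 34.2 CPM, Ccnd2 at 166 against 225 CPM, Cdkn1b at 50.4 against 59.7 CPM and Rb1 at 132.2 against 132.0 CPM. Inside classes Rb1 was at 103 against 140 CPM in myeloid and 113 against 152 CPM in lymphoid nuclei, and was called in neither.

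Genes of the same pathway that are no members were listed too: other pocket proteins, E2F factors and their partners, cyclins E and A, their kinases, and regulators of G1. The list holds cycle genes such as Cdk1, so the split by Top2a is not independent of them. Of 30 listed genes 27 were measured in the Top2a comparison, where the rule called 5.22% of all genes, 2.00% lower. Of the 27, 9 were called higher and 0 lower. The largest were Cdk1, the mitotic kinase, at 60.1 against 11.5 CPM, and E2f7, a repressor of the E2F family, at 47.3 against 8.97 CPM. At the other end, Cables1, a regulator of cyclin-dependent kinases, and Foxo1, a forkhead transcription factor, had log2 ratios of -0.58 and -0.52 and were not called. In erythroid against stem nuclei, 5 of 27 were called higher and 5 lower, which is near the background of 35.4% of all genes. Ccne1, cyclin E1, was at 29.3 against 2.08 CPM, E2f8 at 76.5 against 29.4 CPM, Cables1 at 10.1 against 54.3 CPM and E2f7 at 10.9 against 35.6 CPM. Of 26 measured pathway genes, 1 was called higher and 3 lower in myeloid against stem nuclei, with a background of 17.0%. In lymphoid nuclei 1 was higher and 1 lower, with a background of 10.4%, and in megakaryocyte nuclei 3 were higher and 1 lower, with a background of 10.0%. Cables1 was among the lower genes in each of the 4 comparisons.

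**Figure D3:**
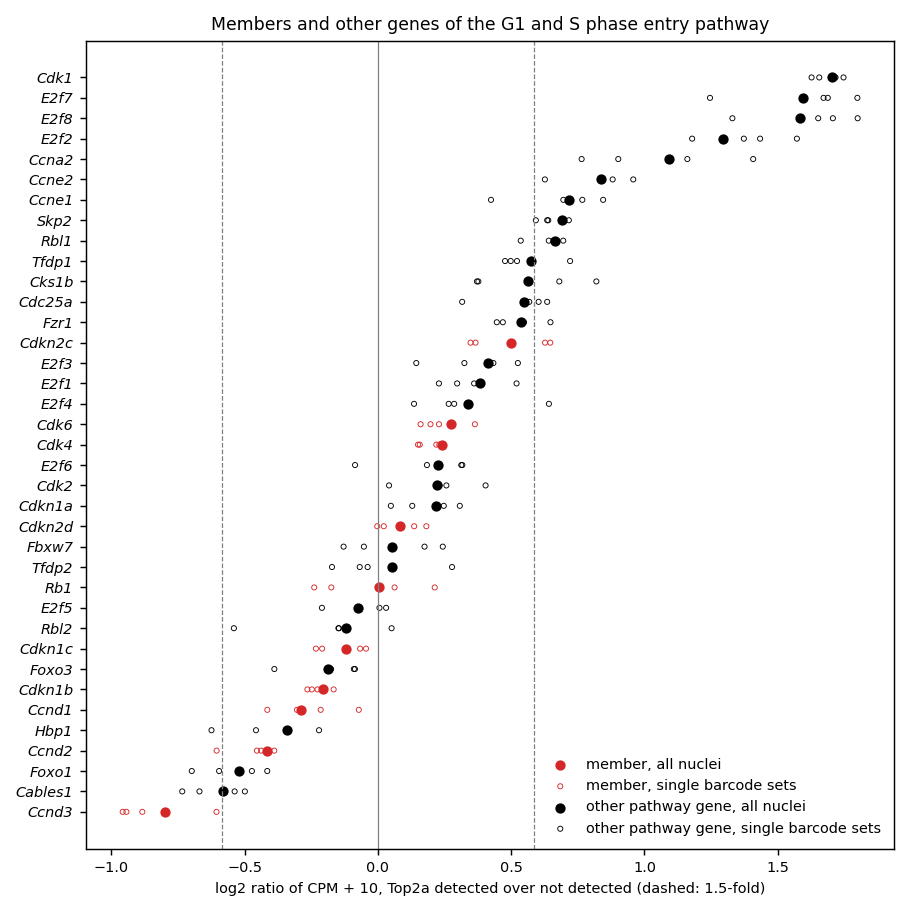
Log2 ratio of CPM + 10, Top2a detected over not detected, for the 10 members (red) and 27 other pathway genes (black); filled points are all nuclei, open points single barcode sets, and dashed lines mark 1.5-fold. Ccnd3 is the lowest at -0.80 and Cdk1 the highest at 1.70.

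Nuclei without Top2a can be out of cycle, in G1 or in early S phase, or can hold Top2a transcripts that were not detected. They were therefore split by S phase genes, among them the Mcm helicase subunits and Pcna, with at least 2 of 16 detected or none, after every nucleus had been thinned to 2000 UMIs. At that depth Top2a was detected in 32.4% of stem nuclei, against 46.0% at full depth. Nuclei without Top2a here thus include some that had it at full depth. Values are means of 20 thinning draws, nuclei with 1 S phase gene were left out, and the split was chosen after earlier values had been seen. In stem nuclei without Top2a, Cdk6 was at 1527 CPM where S phase genes were detected, against 905 CPM where none was, a ratio of 1.70 (counting interval 1.44 to 1.99, draws 1.26 to 2.24). Over sets 1 to 4 the levels were 1085, 1596, 1384 and 1692 CPM with S phase genes, against 898, 824, 655 and 1338 CPM with none. Each set was higher with S phase genes. Stem nuclei with both S phase genes and Top2a had 1736 CPM. Ccnd3 in stem nuclei, gated at full depth, was at 397 CPM with neither, 312 CPM with S phase genes alone and 202 CPM with both.

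Over all nuclei the 4 states gave different orders for different members. In the order of no S phase gene and no Top2a, S phase genes alone, both, and Top2a alone, Cdk6 had 1195, 1740, 1710 and 1575 CPM. Ccnd3 had 288, 213, 139 and 170 CPM in the same order, and in each set it was lower with S phase genes alone than with neither. Cdkn2c had 3.03, 3.11, 10.4 and 10.5 CPM, higher in the states with Top2a in the pooled counts, but in set 2 it was at 1.79 CPM with Top2a alone. Rb1 had 111, 138, 145 and 89.3 CPM, and was lowest in each set where Top2a was detected without S phase genes.

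**Figure D4:**
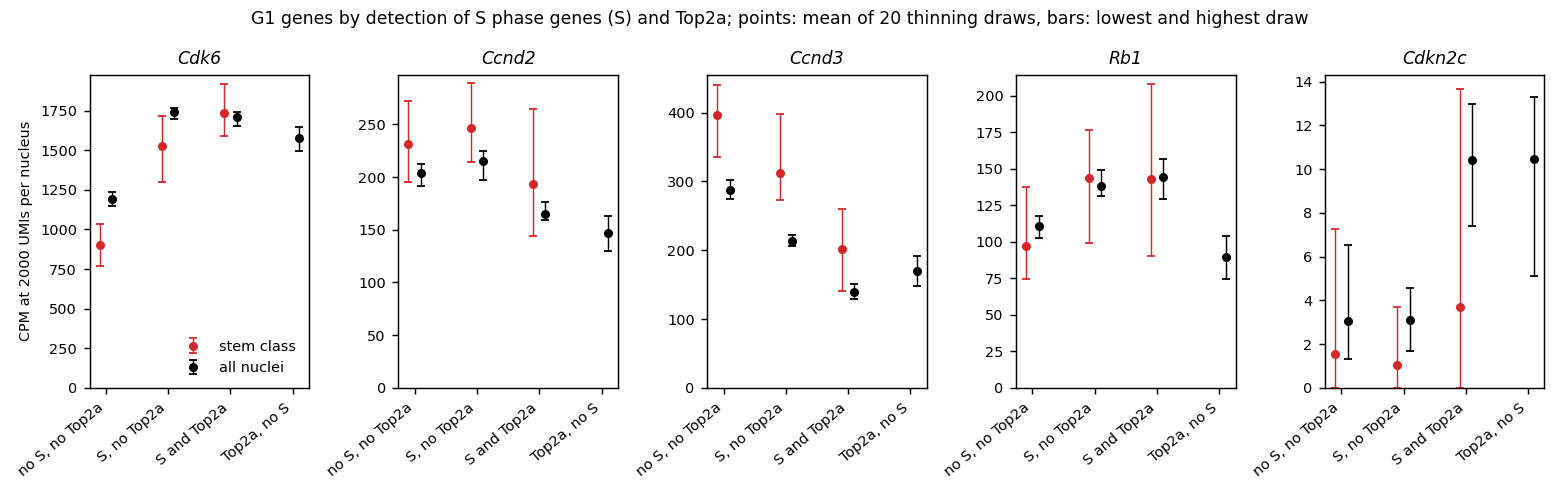
Levels in CPM at 2000 UMIs per nucleus of 5 genes by detection of S phase genes and Top2a, in stem nuclei (red) and all nuclei (black); points are means of 20 thinning draws and bars run between the lowest and the highest draw. Cdk6 in stem nuclei is at 905, 1527 and 1736 CPM in the first 3 states; stem nuclei with Top2a alone were too few to show.

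Rarer classes held levels outside the range of the 5 progenitor classes, and these 3 comparisons were chosen after their values had been seen. The late erythroid gate, built on globin genes, Slc4a1 and Alas2, held 59 nuclei, all from sets 1 and 3, with a median of 1495 UMIs, against 8795 in erythroid nuclei. Rb1 was at 863 CPM there (704 to 1047), against 147 CPM in erythroid nuclei (135 to 159). In set 1 its levels were 908 against 138 CPM, and in set 3 they were 801 against 131 CPM. Cdkn1b was at 178 against 26.7 CPM, Ccnd3 at 228 against 66.1 CPM and Cdkn2c at 102 against 5.70 CPM, the last from 12 and 22 UMIs. Rb1, Cdkn1b and Ccnd3 were called higher, 3 of 6 measured members, in a comparison where 46.9% of all genes were called and 17.6% were called higher. At 2000 UMIs per nucleus 27 late erythroid nuclei were left, and Rb1 alone was called, with only 2 members reaching the count minimum. The log2 ratios were then 2.24 for Rb1, 2.37 for Cdkn1b and 0.39 for Ccnd3, the last against 1.65 at full depth. Cdk6 was at 947 against 1280 CPM and was not called. Among the other pathway genes, 13 of 24 were called higher and 3 lower, with E2f2, an activating E2F factor, at 947 against 19.5 CPM and Tfdp2, an E2F partner, at 770 against 124.5 CPM. E2f6, a repressor of the family, and Foxo1 had no UMI there, against 107 and 95 UMIs in erythroid nuclei. Late erythroid nuclei held 118216 UMIs in all, against 3856646 in erythroid nuclei, and the exact Poisson limit for 0 UMIs was 31.2 CPM. A count of 0 at this depth does not show a loss of either gene. The S phase genes summed to 2309 CPM in late erythroid and 1009 CPM in erythroid nuclei, and the mitosis genes without Top2a to 8332 and 3490 CPM. Their part in the member levels was not tested.

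Neutrophil-gated nuclei, 67 in number, had a median of 1343 UMIs, against 6793 in myeloid nuclei. Sets 1 to 4 held 35, 1, 31 and 0 of them. Neutrophil nuclei had no Cdk4 UMI, for which the exact Poisson limit is 27.6 CPM, against 53.2 CPM in myeloid nuclei. They had 734 against 1996 CPM of Cdk6 and 30.0 against 167 CPM of Ccnd2, the last from 4 UMIs. Sets 1 and 3 of the myeloid class had lower levels, at 39.3 and 38.3 CPM of Cdk4 and 1608 and 1647 CPM of Cdk6. Neutrophil nuclei had 504 and 1022 CPM of Cdk6 in those sets. Cdk4, Cdk6 and Ccnd2 were called lower, 3 of 7 measured members, where 36.3% of all genes were called, 30.9% lower. Ccnd3, at 120 against 90.2 CPM, was not. Of 26 measured pathway genes, 3 were called higher and 5 lower, near the background of 36.3%. The 149 monocyte and dendritic nuclei had 77.9 CPM of Ccnd1, against 11.0 CPM in stem nuclei. In sets 1 to 4 the Ccnd1 levels were 88.3, 35.9, 78.6 and 82.8 CPM, from 6, 2, 13 and 26 UMIs. No class of the 5 reached 77.9 CPM in the pooled counts. Cdk6 was at 562 against 1520 CPM, Ccnd2 at 91.2 against 221 CPM and Ccnd3 at 151 against 297 CPM. Ccnd1 was called higher and the other 3 lower, 4 of 7 measured members, where 28.5% of all genes were called, 9.38% higher and 19.1% lower. Of 26 measured pathway genes, 1 was called higher and 8 lower, near the background of 28.5%.

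**Figure D5:**
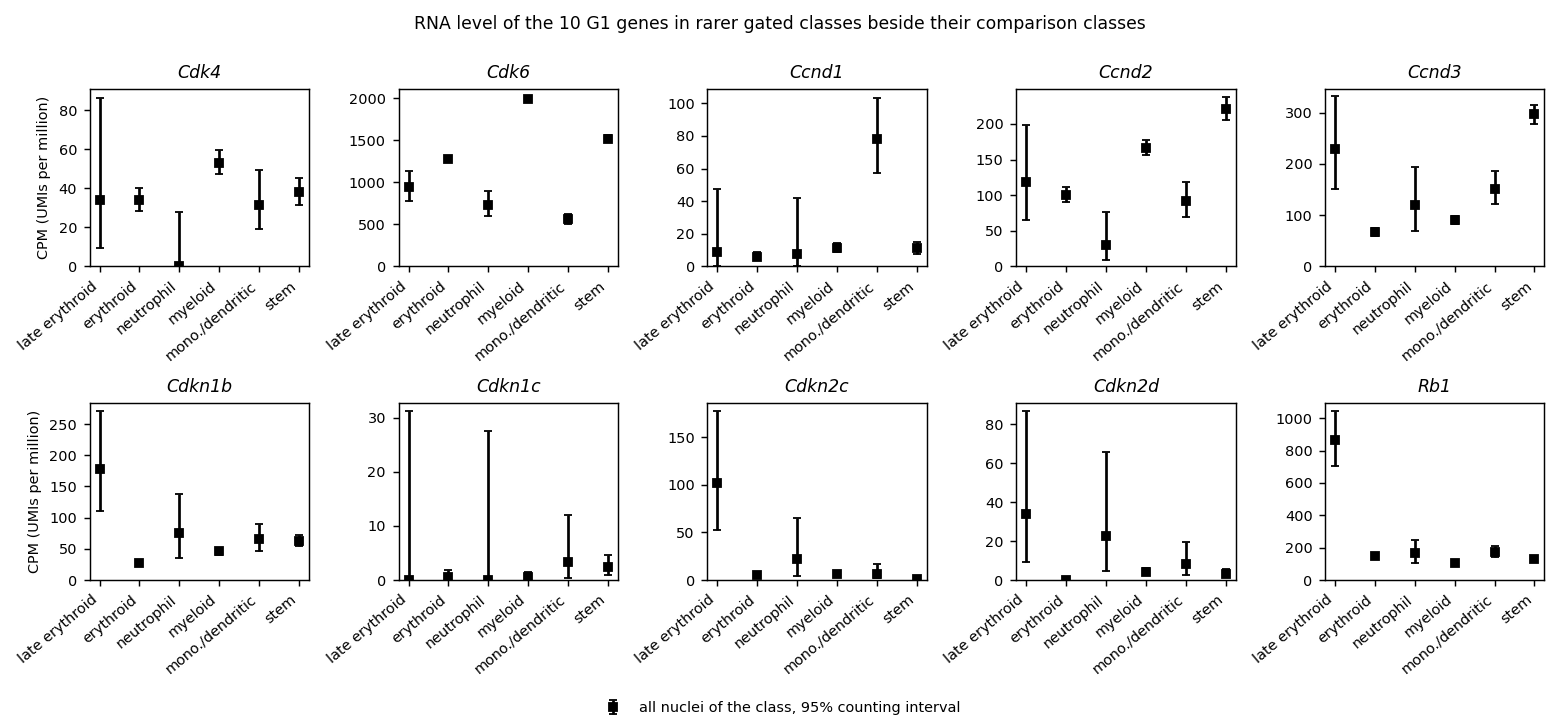
Level of each of the 10 genes in CPM (linear axis) with the 95% counting interval in late erythroid, neutrophil and monocyte and dendritic nuclei, each left of the class it was compared with. Rb1 is at 863 CPM in late erythroid nuclei, against 147 CPM in erythroid nuclei, and Ccnd1 at 77.9 CPM in monocyte and dendritic nuclei, against 11.0 CPM in stem nuclei.

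For each member with at least 200 UMIs, the genes with the most similar profile were sought by Pearson's r of log2(CPM + 10) over 13 points, the classes of at least 50 nuclei divided by Top2a where both sides allowed it. Points share libraries and depth, and the r values describe the ranking only. The gene most like Cdk6 was Hdac2, a histone deacetylase (r = 0.954), and that most like Ccnd3 was Gimap6 (r = 0.936). Cdkn2c was followed most closely by Ccdc25 (r = 0.946) and, in the third place, by Rrm2, a subunit of ribonucleotide reductase (r = 0.937). Rb1 was followed by Usp7 (r = 0.966) and by the globin gene Hbb-bs (r = 0.963), which is a marker of the late erythroid gate.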

How the data were processed

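RNA was measured in sorted bone marrow nuclei. Per the submitters' processing notes, the authors worked on build mm10 with the tools Cell Ranger ARC, Signac and Seurat; the sources used here give no versions, annotation or filters on nuclei. Deposited values are raw UMI counts per gene and nucleus, checked to be whole numbers and treated as 1 sample; ATAC samples were not used. A nucleus entered a class with at least 3 of 5 stem, 3 of 5 myeloid, 2 of 5 lymphoid, 2 of 5 megakaryocyte or 3 of 6 erythroid markers, and none if it met several gates (538 nuclei). Minimum marker numbers were set after marker detection was seen, without member levels. Members and lists were chosen with earlier results of these data known. No doublet caller was run. Counts were summed per group and scaled to CPM. Intervals are exact Poisson for levels and exact binomial for ratios, both for counting error only. Tests planned for T58A against WT were not run. All members are named; for other pathway genes, values are given for the 2 largest and 2 smallest ratios of a comparison. Alternatives covered scaling, pseudocount, count minimum, barcode sets, depth, gates and the Top2a definition. The calling rule was also run on simulated counts with known changes, and its rates of true and false calls are not given here. Python 3.11.15, NumPy 2.4.6 and SciPy 1.17.1 were used.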

Additional observations from a re-analysis of the deposited data

How the results depend on the processing

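Of 616 member values recomputed under alternatives, 544 moved by less than their counting interval, 72 moved further and 0 called values changed sign, although values that were not called could, such as Cdk6 in erythroid against stem nuclei. By Top2a detection in all nuclei, 2 members instead of 1 were called with CPM + 1, without barcode set 4 and at 2000 UMIs per nucleus, with Cdkn2c added each time. In stem nuclei, 1 instead of 0 was called without set 2 and with at least 2 Top2a UMIs (Ccnd3), and without set 4 (Cdk6); 2 were called with at least 2 other mitosis genes (Cdk6 and Ccnd3). Against stem nuclei, myeloid calls were 2 instead of 1 with sets weighted equally and with 1 more gate marker (Ccnd2 added), and 3 at 2000 UMIs (Cdk6 and Ccnd2 added). Lymphoid calls were 2 instead of 0 at 2000 UMIs (Cdk4 and Cdk6). Megakaryocyte calls were 0 instead of 1 over non-mitochondrial UMIs, without set 3 and with sets weighted equally, and 2 at 2000 UMIs (Cdk6 added) and with 1 more gate marker (Rb1 added). Late erythroid calls were 5 instead of 3 with no minimum count and 1 at 2000 UMIs, where 27 nuclei were left. Thinning removes nuclei from the gates, so it changes both depth and membership. The share of all genes called was not computed under the alternatives, so whether the added calls exceed it is unknown. The log2 ratio of Ccnd3 stayed between -0.92 and -0.70 by Top2a in all nuclei, between -2.34 and -1.55 in myeloid and between -2.34 and -1.78 in erythroid against stem nuclei. It ranged more in the other comparisons, between -0.71 and -0.20 by Top2a in stem nuclei, between -0.98 and -0.41 in megakaryocyte and between -0.33 and 0.09 in lymphoid against stem nuclei, and between 0.39 and 1.77 in late erythroid against erythroid nuclei. The cause of the changed counts was not tested. Alternatives added after seeing the data were the removal of repeated barcodes, which changed no count, the late erythroid comparison and the S phase split, whose Cdk6 ratio stayed between 1.46 and 1.80. No paired analysis was possible because no source used here ties nuclei to the labelled samples. Depth limits Cdkn1c, Cdkn2c and Cdkn2d most.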
